A study of Mus musculus with 11 samples.

Results

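Mitochondrial ribosomal protein genes were read in splenic mouse T cells with and without the cereblon gene, before and after stimulation. The members were all genes whose symbol starts with Mrpl or Mrps followed by a digit, and 76 of the 18194 genes on the arrays met that rule, 47 of the large subunit (Mrpl) and 29 of the small subunit (Mrps). Each was represented by its probe set (a group of short probes read together) of highest mean over all arrays. The rule used only the name, so no measured value chose the members. No low-value filter was applied, and 0 members lay below the lowest array's lower quartile of 4.57 in any array.

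The mitochondrial ribosome translates the few messenger RNAs encoded by mitochondrial DNA, which specify core subunits of the respiratory chain complexes and of ATP synthase. All of its proteins are encoded in the nucleus, made in the cytosol and imported, and its ribosomal RNAs come from mitochondrial DNA. A resting T cell is small and has few mitochondria, and stimulation through the antigen receptor and CD28 is known to start growth, mitochondrial biogenesis and raised demand for mitochondrial translation. Cereblon picks substrates for a CUL4 ubiquitin ligase and is the protein that thalidomide binds.

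T cells had been purified by negative magnetic bead selection from spleens of female C57BL6 mice aged 3 to 4 months, either crbn-/- (KO) or wild type (WT), and each sample was hybridised to its own one-colour Affymetrix array. Activated cells had been treated for 12 hours with plate-bound anti-CD3 at 5 µg/ml together with soluble anti-CD28 at 1 µg/ml, and naive cells had been collected unactivated. The groups held 3 KO activated, 2 WT activated, 3 KO naive and 3 WT naive arrays. Cells cultured without stimulation were not analysed here, so stimulation and time in culture cannot be told apart. The sources used here do not say which part of Crbn was removed. Values are log2 RMA levels, in which 1 unit is a 2-fold difference, and precision is limited by how few arrays there are. In such bulk samples a change in the mix of cells and a change in RNA per cell cannot be told apart, and RMA levels are relative to the overall signal of the arrays.

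The deleted gene was read first. Crbn averaged 8.68 ± 0.09 in KO activated and 9.59 ± 0.17 in WT activated cells (SD, n = 3 and 2), a limma difference of -0.90 (adjusted p = 0.0041), and 8.99 ± 0.08 in KO naive and 10.12 ± 0.08 in WT naive cells (SD, n = 3 each), a difference of -1.13 (adjusted p = 8.7e-05). No KO array overlapped a WT array of the same state. The 7 measured T cell markers of 8 listed (Cd3d, Cd3e, Cd3g, Cd2, Cd5, Cd6, Thy1) were above the lowest lower quartile on every array, with linear sums of 16961 to 18364 in KO activated, 18508 to 19780 in WT activated, 30736 to 31670 in KO naive and 28547 to 31686 in WT naive cells. The 5 measured B cell markers of 6 summed to 5247 to 6004, 3822 to 5089, 13371 to 15518 and 11867 to 13248 in the same 4 groups. Pearson's r between arrays of a group over all 45101 probe sets was 0.994 to 0.997.

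Most mitochondrial ribosomal protein genes were higher after activation in both genotypes. In KO cells 66 of the 76 passed the threshold (limma, Benjamini-Hochberg adjusted p under 0.05 over all genes) as higher in activated than in naive cells and 1 as lower, where 20.7% of all genes passed as higher and 22.4% as lower. In WT cells 62 passed as higher and 1 as lower, where 20.2% of all genes passed as higher and 20.9% as lower. The median difference of the members was 0.86 log2 in KO cells, with a range of -0.36 to 2.11, and 0.70 log2 in WT cells, with a range of -0.31 to 1.87, while the medians over all genes were -0.03 and 0.06.

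The arrays of the 2 states were separate for most members. In KO cells all activated arrays lay above all naive arrays for 70 members and below them for 2, where 24.5% and 28.0% of all genes did so. In WT cells they lay above for 63 and below for 1, where 31.1% and 25.8% of all genes did so. A total of 61 members rose in both genotypes, as did 16.0% of all genes. Rises of at least 2-fold that passed the threshold were seen for 27 members in KO and 12 in WT cells, against 6.02% and 3.70% of all genes. The median standard error of a member's activation difference was 0.087 log2 in KO and 0.098 log2 in WT cells.

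**Figure D1:**
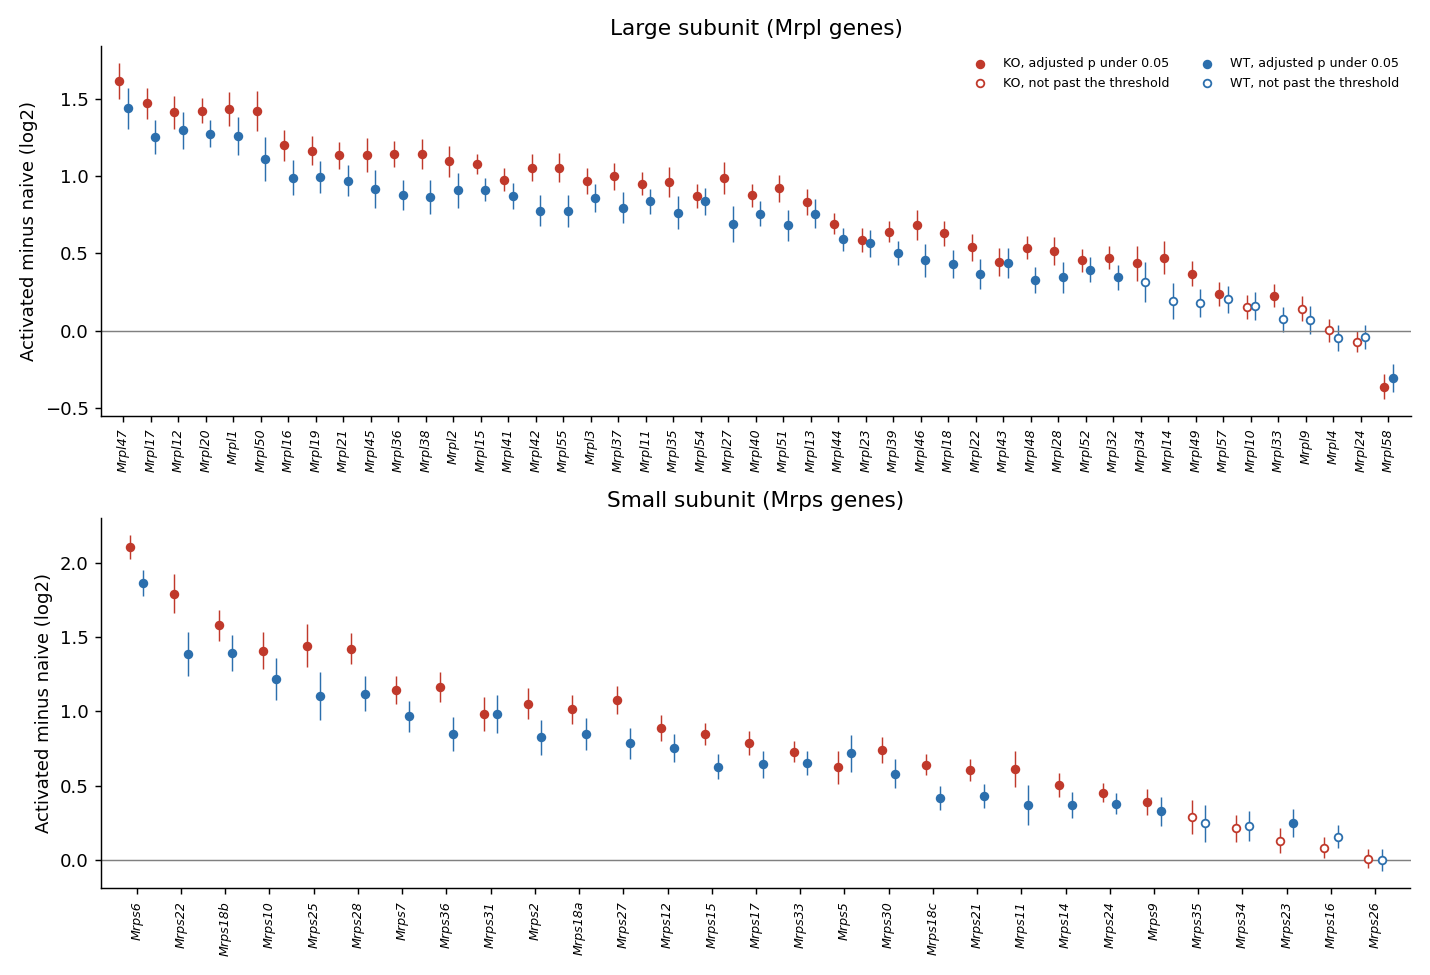
Activated minus naive difference (log2, vertical axis) of each of the 76 genes, large subunit above and small subunit below, KO in red and WT in blue, ordered by the mean over both genotypes. Bars are 1 standard error of the limma fit; filled points passed an adjusted p under 0.05. Values run from 2.11 in KO and 1.87 in WT for Mrps6 to -0.36 in KO and -0.31 in WT for Mrpl58.

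Genes of both subunits rose, with subunits taken from the names (Mrps18a and Mrps30 are named for the small subunit but have been placed in the large one). Of the 47 large subunit genes 42 rose and 1 fell in KO cells (median 0.88) and 37 rose and 1 fell in WT cells (median 0.76). Of the 29 small subunit genes 24 rose in KO cells (median 0.79) and 25 in WT cells (median 0.66), and 0 fell. Proteins with a counterpart in the bacterial ribosome, taken as Mrpl1 to Mrpl36 and Mrps1 to Mrps21, were set beside the higher numbers, which are mostly additions of the mitochondrial ribosome. Of 43 genes with bacterial numbers 38 rose in KO (median 0.85) and 35 in WT cells (median 0.72). Of the 33 with higher numbers 28 rose and 1 fell in KO (median 0.87), and 27 rose and 1 fell in WT cells (median 0.68). No difference between these classes was tested.

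The array medians show which samples carried the shift. Measured from the WT naive mean, the median over the 76 genes was 0.78, 0.81 and 0.79 log2 in the KO activated arrays and 0.60 and 0.84 in the WT activated arrays, against -0.05, -0.07 and -0.13 in the KO naive and 0.10, -0.04 and -0.06 in the WT naive arrays. The medians over all genes lay between -0.01 and 0.06. The 2 WT activated arrays stood apart from each other, with array 1 below array 2 for 75 of the 76 members. Among WT naive arrays, array 1 was the highest for 65 members.

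**Figure D2:**
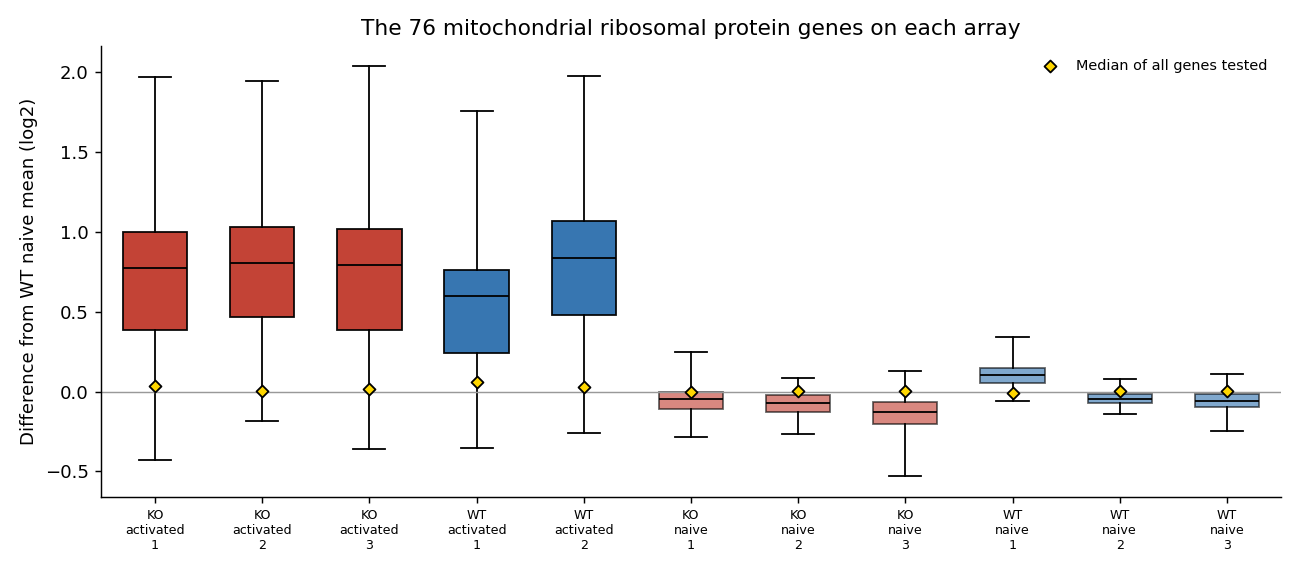
Difference from the WT naive mean (log2, vertical axis) of the 76 genes on each of the 11 arrays; boxes span the quartiles, the line is the median and whiskers reach the lowest and highest gene. Diamonds mark the median of all 18194 genes. The 5 activated arrays have medians of 0.60 to 0.84 and the 6 naive arrays -0.13 to 0.10.

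Promoter sequence is shown for 5 members picked after values were seen, each of which holds at least 1 of the 4 motifs searched. They do not stand for the family, and of the 10 largest rises 5 hold any of the motifs. The RefSeq windows (GRCm38.p6) run from 250 bases before to 50 bases after the gene start, 300 bases in all, on the gene's strand. Mrps22, Mrpl12 and Mrpl20 are among the 10 largest rises, Mrps27 holds 2 of the motifs and rose by 1.08 in KO and 0.79 in WT cells, and Mrpl58 is the gene that fell. Capitals mark the motif letters: CCGGAAG of the ETS family (which includes GABP, a known activator of genes for mitochondrial proteins) in Mrps22, on the opposite strand in Mrps27, and at 2 places in Mrpl58, AAGATGGC of YY1 in Mrps27, the letters of NRF1 (a regulator of nuclear genes for mitochondrial proteins) in Mrpl12 and the E-box CACGTG in Mrpl20, which MYC and MAX are known to bind. Mrps22 lies at chr9:98601630-98601929 (minus strand), Mrps27 at chr13:99344536-99344835, Mrpl12 at chr11:120484387-120484686, Mrpl20 at chr4:155802628-155802927 and Mrpl58 at chr11:115403502-115403801 (plus strand for the other four).
Mrps22: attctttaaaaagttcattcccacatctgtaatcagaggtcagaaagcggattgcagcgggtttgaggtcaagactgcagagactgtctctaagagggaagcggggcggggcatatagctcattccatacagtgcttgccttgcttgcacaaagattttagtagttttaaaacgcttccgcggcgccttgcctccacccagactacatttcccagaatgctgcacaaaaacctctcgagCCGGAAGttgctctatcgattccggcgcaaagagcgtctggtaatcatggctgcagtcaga
Mrps27: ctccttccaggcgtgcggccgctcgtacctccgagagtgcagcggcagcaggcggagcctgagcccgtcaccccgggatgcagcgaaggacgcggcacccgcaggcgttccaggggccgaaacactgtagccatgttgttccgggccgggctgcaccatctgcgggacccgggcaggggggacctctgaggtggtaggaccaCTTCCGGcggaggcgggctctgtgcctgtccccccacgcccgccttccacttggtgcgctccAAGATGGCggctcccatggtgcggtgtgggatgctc
Mrpl12: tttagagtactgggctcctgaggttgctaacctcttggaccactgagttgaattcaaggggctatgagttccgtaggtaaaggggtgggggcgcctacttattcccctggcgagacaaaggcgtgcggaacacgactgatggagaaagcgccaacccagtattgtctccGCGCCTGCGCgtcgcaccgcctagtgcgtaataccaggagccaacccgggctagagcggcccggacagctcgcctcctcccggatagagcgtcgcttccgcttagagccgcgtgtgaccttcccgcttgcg
Mrpl20: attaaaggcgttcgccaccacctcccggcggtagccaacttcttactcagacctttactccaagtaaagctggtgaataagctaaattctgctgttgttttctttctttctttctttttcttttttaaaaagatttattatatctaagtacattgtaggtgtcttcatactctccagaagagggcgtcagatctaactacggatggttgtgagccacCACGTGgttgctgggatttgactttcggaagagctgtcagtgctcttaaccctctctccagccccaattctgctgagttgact
Mrpl58: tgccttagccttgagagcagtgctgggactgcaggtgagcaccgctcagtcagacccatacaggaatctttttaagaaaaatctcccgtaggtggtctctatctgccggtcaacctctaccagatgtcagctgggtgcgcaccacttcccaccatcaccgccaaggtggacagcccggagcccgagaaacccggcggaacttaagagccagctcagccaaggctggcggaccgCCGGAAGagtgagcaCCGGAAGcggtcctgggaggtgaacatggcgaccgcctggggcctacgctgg

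Relative to the gene start, the first base of the motif lies at -11 in Mrps22, at -48 (ETS) and 15 (YY1) in Mrps27, at -81 in Mrpl12, at -33 in Mrpl20, and at -17 and -2 in Mrpl58. Over the family, 67 of the 76 members had a window, 73 windows in all. Both strands were searched. The ETS letters were found for 25 members (37.3%), against 14.98% of the 14453 tested genes with a window and 9.93% of all 27025 genes in the table. NRF1 letters were found for 12 members (17.9%), against 8.61% and 5.19%, and YY1 letters for 12 (17.9%), against 4.07% and 3.19%. The E-box was found for 5 members (7.46%), against 10.2% and 8.09%. The median GC content of the members' windows was 58.7%, against 52.7% in all windows of the table. The part of GC content in these shares was not tested.

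At least 1 of the 4 motifs was found for 43 members and more than 1 for 11. The activation median of the 43 was 0.64 in KO and 0.50 in WT cells, and that of the 24 members with none was 0.96 in KO and 0.80 in WT cells. The 25 members with the ETS letters had medians of 0.63 and 0.43, against 0.96 and 0.77 for the other 42, and the 12 with the NRF1 letters 0.54 and 0.39, against 0.92 and 0.75 for the other 55. The order was the other way round for YY1, with 0.98 and 0.77 for the 12 members that hold it, against 0.74 and 0.65 for the other 55, and for the E-box, with 1.10 and 0.88 for 5 members, against 0.77 and 0.65 for the other 62. Both the largest rise after Mrps6 (Mrps22) and the fall of Mrpl58 were seen at genes with the ETS letters, and Mrps6 itself held none of the motifs. These are descriptions with no test, and a match of letters is not a bound site.

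**Figure D3:**
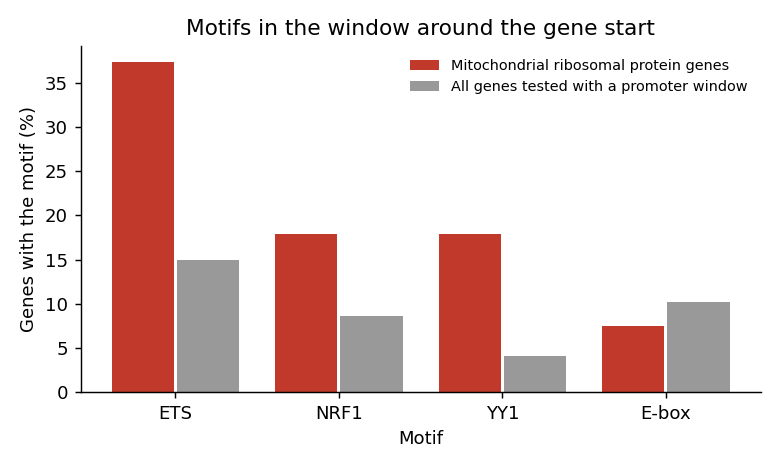
Share of genes (%, vertical axis) whose window around the start holds each motif, for the 67 mitochondrial ribosomal protein genes with a window (red) and the 14453 tested genes with a window (grey). ETS letters were found in 37.3% against 14.98%, and the E-box in 7.46% against 10.2%.

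The largest rise was that of Mrps6, a small subunit platform protein related to bacterial S6. It read 11.14, 11.12 and 11.21 in KO activated against 9.11, 9.08 and 8.95 in KO naive arrays, and 10.93 and 11.14 in WT activated against 9.27, 9.09 and 9.15 in WT naive arrays. All activated arrays stood above all naive arrays in both genotypes. The differences were 2.11 (SE 0.080, 4.31-fold, adjusted p = 6.1e-10) in KO and 1.87 (SE 0.089, 3.65-fold, adjusted p = 8.5e-09) in WT cells. Mrps6 overlaps Slc5a3, a sodium and myo-inositol cotransporter gene, in the gene table. Slc5a3 read by its own probe set rose by 2.24 in KO (adjusted p = 5.6e-09) and 1.83 in WT cells (adjusted p = 1.9e-07). The other Mrps6 probe set differed by 1.91 in KO and 1.76 in WT cells. Which transcript the Mrps6 probes read was not tested.

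Mrps22, a mitochondrion-specific small subunit protein, followed. It read 10.17, 10.12 and 10.05 in KO activated against 8.48, 8.35 and 8.14 in KO naive arrays, and 9.82 and 10.18 in WT activated against 8.91, 8.53 and 8.40 in WT naive arrays. The states did not overlap in either genotype, and WT naive array 1 was the highest of the naive arrays. The differences were 1.79 (SE 0.133, adjusted p = 1.3e-07) in KO and 1.39 (SE 0.149, adjusted p = 6.6e-06) in WT cells.

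Mrpl47, a large subunit protein related to bacterial L29, which sits by the tunnel exit, read 10.47, 10.51 and 10.46 in KO activated against 8.86, 8.94 and 8.80 in KO naive arrays, and 10.24 and 10.58 in WT activated against 9.24, 8.94 and 8.73 in WT naive arrays. It rose by 1.62 (SE 0.118, adjusted p = 1.2e-07) in KO and 1.44 (SE 0.132, adjusted p = 1.6e-06) in WT cells. Mrps18b, one of the mitochondrial paralogues of bacterial S18, read 9.93, 9.98 and 9.98 in KO activated against 8.47, 8.34 and 8.34 in KO naive arrays, and 9.68 and 10.05 in WT activated against 8.66, 8.46 and 8.29 in WT naive arrays. It rose by 1.58 (SE 0.106, adjusted p = 5.5e-08) in KO and 1.39 (SE 0.119, adjusted p = 8.8e-07) in WT cells. For both genes the lowest activated array was WT activated 1, which still lay above the highest naive array.

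Mrpl12, the protein of the flexible stalk that recruits translation factors and that has also been described as binding the mitochondrial RNA polymerase, read 11.35, 11.29 and 11.33 in KO activated against 9.99, 9.93 and 9.81 in KO naive arrays, and 11.14 and 11.48 in WT activated against 10.24, 9.91 and 9.89 in WT naive arrays. It rose by 1.41 (SE 0.107, adjusted p = 1.6e-07) in KO and 1.30 (SE 0.120, adjusted p = 1.7e-06) in WT cells. The other 5 of the 10 largest rises were Mrpl17 (1.47 in KO, 1.25 in WT), Mrpl20 (1.42, 1.27), Mrpl1 (1.44, 1.26), Mrps10 (1.41, 1.22) and Mrps25 (1.44, 1.11). Mrpl17, Mrpl20, Mrpl1 and Mrps10 have bacterial counterparts of the same number, and Mrps25 does not. The adjusted p of these 5 was at most 2.0e-06 in KO and 9.0e-05 in WT cells, and their activated and naive arrays did not overlap in either genotype. The ranking rests on the chosen probe sets. Where these 10 genes had other probe sets, those differed by less. For Mrpl17 they differed by 0.20 and 0.24 in KO and by 0.18 and 0.11 in WT cells. Another probe set of Mrpl15, a gene not among the 10, rose by 1.72 in KO and 1.44 in WT cells.

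**Figure D4:**
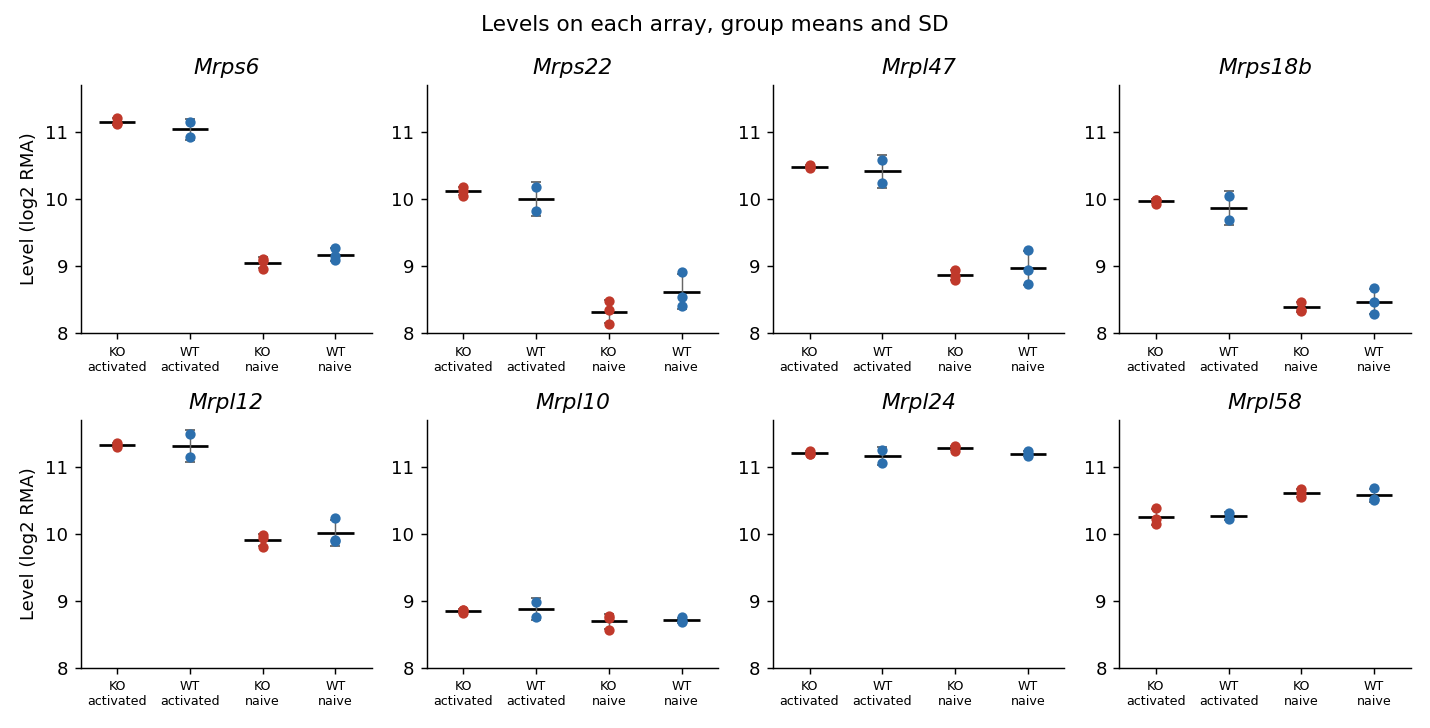
Level (log2 RMA, vertical axis from 8) of 8 genes on each array, KO activated, WT activated, KO naive and WT naive from left to right. Points are arrays, lines are group means and bars are SD (n = 3, 2, 3 and 3). The top row and Mrpl12 stand above every naive array in all activated arrays, while the states lie close together for Mrpl10 and Mrpl24, overlapping in WT cells and not in KO cells, and Mrpl58 is lower in activated cells.

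Some members were grouped by place in the ribosome, in regions picked after values were seen that do not cover the whole ribosome. In each listed region most or all of the grouped genes rose, with single exceptions in some. Over the whole family 66 of 76 members rose in KO and 62 in WT cells. The decoding centre was represented by Mrps12 alone, and Mrpl47, which sits by the tunnel exit, was not in the tunnel exit group. Many members were in no listed region. Among them were Mrpl9, Mrps16, Mrps26, Mrps34 and Mrps35, which passed in neither genotype. Of the 3 genes of the factor-binding stalk, Mrpl12 and Mrpl11 rose (Mrpl11 by 0.95 in KO and 0.84 in WT cells) and Mrpl10, which anchors the stalk, differed by 0.15 and 0.16 without passing (adjusted p = 0.147 and 0.177). Mrpl10 read 8.82, 8.85 and 8.87 in KO activated against 8.77, 8.75 and 8.56 in KO naive arrays, and 8.75 and 8.99 in WT activated against 8.75, 8.68 and 8.69 in WT naive arrays. Its activated and naive arrays did not overlap in KO cells and touched in WT cells. The difference between Mrpl10 and the stalk proteins it holds was not tested.

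Of 5 proteins grouped here with the peptidyl transferase centre, where peptide bonds form, 4 rose. These were Mrpl2 (1.10 in KO, 0.91 in WT), Mrpl3 (0.97, 0.86), Mrpl16 (1.20, 0.99) and Mrpl27 (0.99, 0.69). Mrpl4 differed by 0.00 and -0.05 and did not pass. Around the exit of the peptide tunnel, Mrpl22 rose by 0.54 in KO and 0.37 in WT cells, Mrpl23 by 0.59 and 0.57, and Mrpl45, which tethers the ribosome to the inner membrane, by 1.14 and 0.92. Mrpl24, at the same exit, read 11.19, 11.23 and 11.19 in KO activated against 11.30, 11.24 and 11.29 in KO naive arrays, and 11.06 and 11.25 in WT activated against 11.16, 11.19 and 11.24 in WT naive arrays. It differed by -0.07 in KO and -0.04 in WT cells (adjusted p = 0.449 and 0.713).

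In the small subunit, all 4 head proteins rose in both genotypes: Mrps7 by 1.14 in KO and 0.97 in WT cells, Mrps9 by 0.39 and 0.33, Mrps10 as above, and Mrps14 by 0.50 and 0.37. Mrps12, the counterpart of S12 at the decoding centre, rose by 0.89 and 0.75. On the platform Mrps6, Mrps11 (0.61, 0.37), Mrps15 (0.85, 0.63) and Mrps21 (0.61, 0.43) rose. The paralogues of bacterial S18, among which Mrps18a has been placed in the large subunit, spread widely. Mrps18a rose by 1.02 in KO and 0.85 in WT cells, Mrps18b by 1.58 and 1.39, and Mrps18c by 0.64 and 0.42.

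Not all of the family rose. The gene that fell in both genotypes was Mrpl58 (older symbol Ict1), a peptidyl-tRNA hydrolase built into the large subunit that frees stalled ribosomes. It read 10.14, 10.39 and 10.21 in KO activated against 10.67, 10.55 and 10.61 in KO naive arrays, and 10.22 and 10.31 in WT activated against 10.52, 10.51 and 10.68 in WT naive arrays. Activated arrays lay below naive arrays in both genotypes. The differences were -0.36 (SE 0.081, adjusted p = 0.0023) in KO and -0.31 (SE 0.091, adjusted p = 0.015) in WT cells. In WT cells the call was lost without WT activated array 1 (-0.26, adjusted p = 0.097) and without WT naive array 3 (-0.25, adjusted p = 0.055).

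The 8 members that passed in neither genotype were Mrpl4, Mrpl9, Mrpl10, Mrpl24, Mrps16, Mrps26, Mrps34 and Mrps35. The smallest mean differences were those of Mrps26 (0.01 in KO, -0.00 in WT), Mrpl4, Mrpl24, Mrpl9 (0.14, 0.07) and Mrps16 (0.08, 0.16), and Mrps26 read 10.25, 10.26 and 10.30 in KO activated against 10.24, 10.27 and 10.26 in KO naive arrays, and 10.18 and 10.36 in WT activated against 10.25, 10.26 and 10.31 in WT naive arrays. Mrpl14, Mrpl33, Mrpl34, Mrpl49 and Mrpl57 passed as higher in KO cells and not in WT cells, with KO differences of 0.47, 0.23, 0.44, 0.37 and 0.24 and WT differences of 0.19, 0.07, 0.32, 0.18 and 0.20. Mrps23 passed in WT (0.25, adjusted p = 0.049) and not in KO cells (0.13). The interaction passed for none of these 6 genes, so no difference between genotypes was shown.

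The other probe sets gave a second reading. Of the 76 members 42 had more than 1 probe set, and 80 probe sets had not been chosen. Among the other probe sets of members that passed in KO cells, 67 of 75 had the same sign, 54 of them also past the threshold, and 0 passed in the opposite direction. In WT cells 68 of 73 had the same sign, 52 of them past the threshold, and 0 passed in the opposite direction. Over all 80, 56 were higher and 0 lower in KO cells, and 53 were higher and 1 lower in WT cells, the lower one being a probe set of Mrpl57 (-0.55, adjusted p = 0.035). Of the members, 19 overlap another protein-coding gene in the gene table. Signal from the 2 genes of such a pair may mix where a probe set lies in the shared part. Mrpl18 and its partner Tcp1, a cytosolic chaperonin subunit, both rose (Tcp1 by 0.95 in KO and 0.83 in WT cells), whereas Klc4, which overlaps Mrpl2, fell by 0.85 in KO and by 0.62 in WT cells while Mrpl2 rose.

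Loss of cereblon changed no single member past the threshold. In activated cells 0 of the 76 passed, where 0.0605% of all genes did, and the smallest adjusted p was 0.781; at an unadjusted p under 0.05 there were 0 members and 1256 of all 18194 genes. In naive cells 0 passed, where 0.148% of all genes did, with a smallest adjusted p of 0.309 and 3 members at an unadjusted p under 0.05, as were 2642 of all genes. On the mean of both states 0 passed, where 0.104% of all genes did. The 95% intervals of the KO minus WT difference lay between -0.27 and 0.44 over all members in activated cells and between -0.58 and 0.34 in naive cells. These are intervals of single genes, and differences within them could not be resolved with this number of arrays.

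The signs of these small differences were uneven. In activated cells KO was above WT for 68 of 76 members (median 0.07, range -0.09 to 0.20), where 43.6% of all genes were above. The KO and WT arrays did not overlap for 4 members, all higher in KO, where 7.37% of all genes were higher and 12.0% lower without overlap. In naive cells KO was above WT for 7 of 76 (median -0.08, range -0.29 to 0.10), where 52.1% of all genes were above. There the arrays did not overlap for 1 member higher and 12 lower in KO, where 9.94% and 10.4% of all genes were. On the mean of both states 30 of 76 were above (median -0.01), where 45.5% of all genes were.

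These counts depended on single arrays. Without WT activated array 1 KO was above WT for 17 of 76 members in activated cells, and the median became -0.07. Without WT activated array 2 the median was 0.19. All 3 KO activated arrays lay between the 2 WT activated arrays for 41 of the 76 members. Without WT naive array 1 KO was above WT in naive cells for 25 members, and without KO naive array 3 for 15. Erythroid markers (5 of 7 measured) had linear sums of 880, 567 and 413 in KO activated, 631 and 698 in WT activated, 2638, 897 and 585 in KO naive and 6953, 3534 and 1813 in WT naive arrays. Their sum was highest in WT naive array 1, the array on which the members were also highest among naive arrays. All 5 measured B cell markers were higher in KO than in WT cells, with medians of 0.42 in naive and 0.53 in activated cells. The 3 measured NK cell markers were also higher in KO in both states. Of these B and NK cell markers 0 passed in either state. The part of the erythroid, B and NK cell markers in the differences was not tested.

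**Figure D5:**
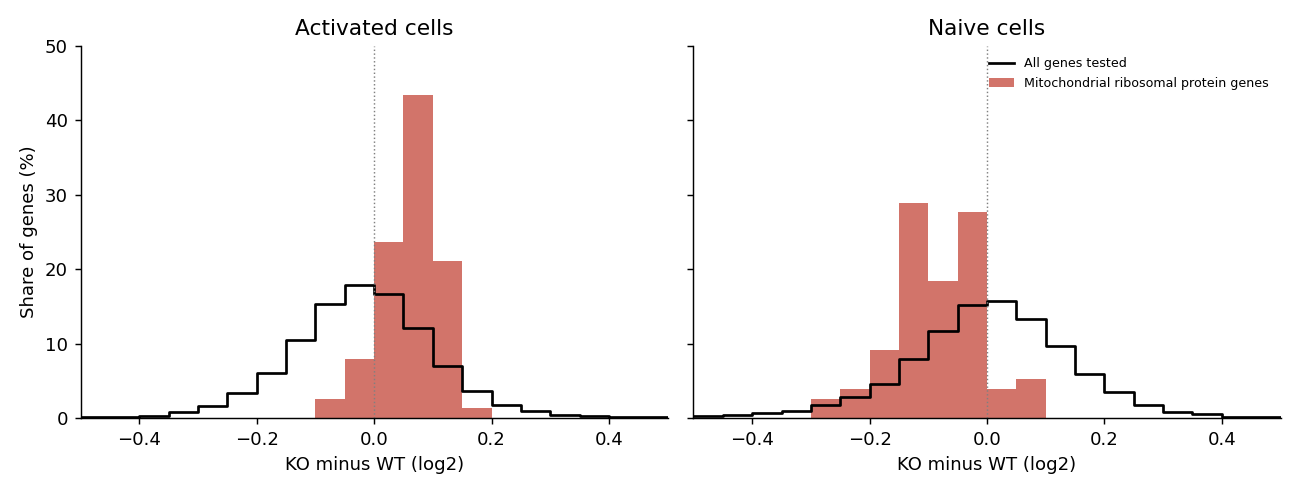
Share of genes (%, vertical axis) by KO minus WT difference (log2, horizontal axis, bins of 0.05) in activated cells (left) and naive cells (right), for the 76 mitochondrial ribosomal protein genes (red) and all genes tested (black line). The family lies mostly above 0 in activated cells (68 of 76) and below 0 in naive cells (69 of 76), with medians of 0.07 and -0.08.

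The members of smallest p were still short of the threshold. In naive cells Mrpl27 read 9.60, 9.56 and 9.37 in KO against 9.96, 9.66 and 9.64 in WT arrays, a difference of -0.24 (adjusted p = 0.309). No KO array reached a WT array. Mrpl14, a protein at the face between the subunits, read 7.82, 7.93 and 7.85 in KO naive against 8.26, 8.02 and 8.05 in WT naive arrays (-0.24, adjusted p = 0.315), Mrps22 differed by -0.29 (adjusted p = 0.337), Mrps18c by -0.15 (adjusted p = 0.361) and Mrpl36 by -0.17 (adjusted p = 0.380). In activated cells Mrpl38 differed by 0.20 (adjusted p = 0.781), with 8.98 to 9.05 in the 3 KO arrays against 8.61 and 9.01 in the WT arrays. Without the lower WT array that difference was -0.00. Mrpl33 (0.14), Mrps15 (0.12), Mrps17 (0.12) and Mrps36 (0.15) came next. On the mean of both states the smallest p were those of Mrpl24 (0.07), Mrpl14 (-0.10), Mrps30 (-0.08), Mrpl33 (0.07) and Mrpl27, with adjusted p of at least 0.875.

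Whether activation raised a member more in KO than in WT cells was tested gene by gene by the interaction. The family as a whole was not tested. The KO difference was the larger for 69 of 76 members, with a median interaction of 0.17, where 45.0% of all genes had a positive interaction, but 0 members passed and 0.0% of all 18194 genes did. At an unadjusted p under 0.05 there were 0 members and 2515 of all genes. The smallest adjusted p was 0.372 (Mrps18c, 0.23), followed by Mrps36 (0.32), a protein also described as part of the 2-oxoglutarate dehydrogenase complex, Mrpl42 (0.28), Mrpl36 (0.26) and Mrps22 (0.41, 95% interval -0.02 to 0.84). Without WT activated array 1 the interaction was positive for 44 members, with a median of 0.02.

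Genes that serve the mitochondrial ribosome were counted by pathway list. Of the subunits that carry other names, 3 of 4 measured rose in both genotypes: Ptcd3 rose by 1.09 in KO and 0.91 in WT cells, Chchd1 by 1.10 and 1.03, and Gadd45gip1 by 1.16 and 0.97. Dap3, a small subunit GTP-binding protein, read 10.47, 10.47 and 10.33 in KO activated against 10.48, 10.39 and 10.42 in KO naive arrays, and did not pass in either genotype (-0.01 in KO, -0.05 in WT cells). Of 24 assembly and ribosomal RNA modification genes 14 rose and 1 fell in KO cells (median 0.33), and 12 rose and 1 fell in WT cells (median 0.27). Fastkd2, an RNA-binding assembly factor, rose by 1.43 and 1.13, the pseudouridine synthase Trub2 by 1.19 and 1.17, the RNA helicase Ddx28 by 1.00 and 0.85 and the rRNA methyltransferase Mrm3 by 0.82 and 0.76, while Mettl17, a factor of small subunit assembly, fell by 0.39 and by 0.31.

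Of 13 measured translation factors of 15 listed, 8 rose in KO (median 0.52) and 6 in WT cells (median 0.30), and 0 fell. The mRNA-stabilising pair Lrpprc and Slirp rose by 1.46 and 1.43 in KO and by 1.14 and 1.33 in WT cells, the elongation factor Gfm1 by 1.27 in KO and 1.12 in WT cells, and Tsfm by 1.21 and 1.02. Of 19 genes of mitochondrial DNA and RNA metabolism 16 rose and 1 fell in KO (median 0.76), and 14 rose and 1 fell in WT cells (median 0.43). Fastkd3 rose by 1.53 in KO and 1.33 in WT cells, the transcription elongation factor Tefm by 1.51 and 1.09, the RNA helicase Supv3l1 by 1.34 and 1.20 and the tRNA-processing enzyme Elac2 by 1.31 and 1.19. Polg, the mitochondrial DNA polymerase, fell by 0.64 in KO and by 0.58 in WT cells.

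Import brings every ribosomal protein of the family into the organelle. All 16 listed import and processing genes rose in KO cells (median 1.12), and 15 of 16 rose in WT cells (median 0.96). The chaperonin Hspd1 rose by 1.96 in KO and 1.55 in WT cells, the outer membrane channel Tomm40 by 1.84 and 1.62, Timm50 by 1.78 and 1.54 and Timm17a by 1.57 and 1.34. The medians over all genes were -0.03 in KO and 0.06 in WT cells.

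Markers of other cells mostly fell or did not pass, with Eomes of the NK list and Itga2b of the platelet list as exceptions. Of all genes 22.4% passed as lower in KO and 20.9% in WT cells, and 20.7% and 20.2% passed as higher. After activation, B cell markers fell for 3 of 5 in KO and 3 of 5 in WT cells, and macrophage markers for 4 and 5 of 6. Neutrophil markers fell for 1 and 1 of 5 and erythroid markers for 1 and 2 of 5. With so few markers per list, the neutrophil count and the KO erythroid count lie near the share of all genes. Among 3 measured NK cell markers 2 fell in KO and 1 in WT cells, while Eomes, a transcription factor also found in activated CD8 T cells, rose by 1.36 in KO and 1.26 in WT cells. Among 3 measured platelet markers 1 fell and Itga2b rose (0.17) in KO cells, and 0 passed in WT cells. T cell markers fell for 5 of 7 in KO, and 5 fell and 1 rose in WT cells. The share of these changes in the rise of the mitochondrial ribosomal protein genes was not tested.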

How the data were processed

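The deposited values are log2 levels of 45101 probe sets on 11 arrays; per the submitters' processing notes GCOS, RMA and Partek were used (versions not given in the sources used here). Values ran from 2.32 to 15.03 with array medians of 5.84 to 5.89 and were used as deposited; no deposited column went unused. Gene symbols came from the platform annotation, checked by Entrez number against the GRCm38.p6 gene table (34754 matched, 0 changed). Of the probe sets 34958 had 1 symbol, 932 several and 9211 none; 4 probe sets share a member with another gene and were left out, so Mrpl30 and Mrpl53 are not members.

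limma 3.58.1 in R 4.3.3 fitted a mean per group over all 11 arrays (prior degrees of freedom 5.46, residual 7), with Benjamini-Hochberg adjustment over 18194 genes and a threshold of 0.05. The labels call the arrays biological replicates; nothing says that same-numbered arrays share an animal. Motif letters were searched with Python 3.11.15 and pandas 2.3.3, and the fit was tested on simulated data. Named were members that fell, the 10 largest and 5 smallest mean activation differences, the 5 of smallest p where no member passed a genotype comparison or the interaction, subunits with other names and up to 4 genes per pathway list. The family, its lists and this rule were chosen with earlier results of these data known; the grouping by place in the ribosome, the genes named there, those passing in 1 genotype, Mettl17, Polg, Slc5a3, Tcp1, Klc4, Eomes, Itga2b and the printed promoters were picked after values were seen. Alternatives were another normalization, centring, array weights, a variance trend, gene filters, the probe set rule, fewer arrays, each array left out and the replicate number as a block.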

Additional observations from a re-analysis of the deposited data

How the results depend on the processing

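The fits kept their direction for most results, and the limits are few arrays per group and the scaling of total signal. Over 92 single-gene results and 1830 comparisons with an alternative, 1803 kept sign and side of the threshold, 22 changed sign, 4 lost and 1 gained the threshold. Most of these results had been picked as large rises or as short of the threshold. Many alternatives left out an array of a group not compared, which leaves the difference unchanged. The count of kept results therefore says little about robustness. Members higher after activation numbered 64 to 68 in KO and 55 to 69 in WT cells when 1 array was left out. In the genotype comparisons and the interaction 0 members passed under any alternative. Members lower after activation in KO cells numbered 2 after renewed quantile normalization, where Mrpl24 also passed (-0.16, adjusted p = 0.047). With the mean of all probe sets of a gene the activation medians were 0.69 in KO and 0.56 in WT cells. Leaving out 1 array at a time, the WT activation median ran from 0.60 to 0.84 and the count of lower members from 0 to 1; in activated cells the genotype median ran from -0.069 to 0.19 with 17 to 75 members above 0, in naive cells 7 to 25 were above 0, on the mean of both states 6 to 68, and for the interaction 44 to 75 with medians of 0.020 to 0.28. In naive cells 25 members were above 0 after quantile normalization and 21 with array weights. The causes were not tested.

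Whether the replicate numbers pair the arrays could not be settled by correlations of deviations from the group mean. Every KO array correlated best with its own number in the other state. Between naive genotypes KO array 2 did not. The deviations of the 2 WT activated arrays mirror each other, so they are not separate readings. Correlations of same-numbered deviations were 0.27, 0.09 and 0.22 between KO states and -0.30 and -0.18 between WT states, 0.39, 0.02 and 0.31 between naive genotypes and 0.01 and 0.10 between activated ones. With the replicate block 65 members were higher in KO and 58 in WT cells, and 0 were lower in WT cells, where Mrpl58 differed by -0.25 (adjusted p = 0.111); with array weights it differed by -0.27 (adjusted p = 0.069), and again 0 were lower in WT.

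Signs near 0 turned: Dap3 was 0.021 in KO after centring on the median and 0.018 in WT with weights, Mrpl4 in KO was -0.075 after quantile normalization and -0.026 with weights, Mrps16 in KO was -0.019 after quantile normalization, and Mrps26 was -0.044 in KO with the mean of probe sets, -0.074 after quantile normalization, and in WT 0.016 with the block and 0.0024 with weights. Leaving out 1 array at a time gave -0.030 to 0.043 in KO and -0.19 to 0.10 in WT for Dap3, -0.057 to 0.047 in KO and -0.14 to 0.039 in WT for Mrpl4, -0.0059 to 0.019 in KO and -0.095 to 0.088 in WT for Mrps26, -0.14 to 0.056 for Mrpl24 and -0.033 to 0.17 for Mrpl9 in WT, and -0.00092 to 0.40 for the activated genotype difference of Mrpl38.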

Other observations

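Probe sets that share a family member with another gene were outside the rule, and their deposited levels are given without a test. The brighter probe set shared by Mrpl30 and Gm6238 averaged 11.92 ± 0.08 in KO activated against 11.62 ± 0.05 in KO naive cells (SD, n = 3 each), and 11.99 ± 0.07 in WT activated against 11.61 ± 0.02 in WT naive cells (SD, n = 2 and 3). The probe set shared by Mrpl53 and Ccdc142 averaged 9.64 ± 0.04 in KO activated against 8.86 ± 0.07 in KO naive cells, and 9.52 ± 0.24 in WT activated against 8.97 ± 0.14 in WT naive cells. The probe set shared by Mrps34 and Nme3 was lower after activation, with 7.62 ± 0.14 in KO activated against 8.13 ± 0.10 in KO naive cells and 7.71 ± 0.22 in WT activated against 8.33 ± 0.13 in WT naive cells. Mrps34 read by its own probe set differed by 0.21 in KO and 0.23 in WT cells and did not pass (limma, adjusted p = 0.076 and 0.090). Which gene a shared probe set reads was not tested.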
